A study of Homo sapiens with 6 samples.

Results

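The genes described here are 9 genes of cortisol activation and glucocorticoid response, taken by symbol from the 35793 genes of the table: HSD11B1, HSD11B2, H6PD, FKBP5, TSC22D3, PER1, ZBTB16, SGK1 and CRISPLD2. They were chosen by their normalized counts in both genotypes, so their differences between genotypes are given as a description with no test. RNA was sequenced from cardiomyocytes on day 15 of differentiation, grown from WTC11, an established human line of induced pluripotent stem cells. Wild-type (WT) cells were unedited, and STK25KO cells came from a WTC11 derivative carrying a CRISPR/Cas9 homozygous knockout of STK25, a serine/threonine kinase gene. Each genotype gave 3 libraries, called replicates 1 to 3, and the labels name no treatment. All cultures were kept in RPMI 1640 with B27 supplement, which is known to contain corticosterone, and no hormone level was recorded in the labels. The knockout was 1 line, so the edit and any other difference between the lines cannot be told apart. The labels do not say whether the biological replicates were separate differentiations, so p-values measure only the spread between these libraries.

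Glucocorticoids act in the heart and other tissues through the glucocorticoid receptor, a hormone-gated transcription factor that HSP90 chaperones hold ready in the cytosol. The active hormone can be made inside a cell: the enzyme encoded by HSD11B1 reduces inactive cortisone to cortisol in the endoplasmic reticulum with NADPH supplied by the H6PD product, and the HSD11B2 enzyme runs the opposite reaction. Hormone-bound receptor then raises transcription of target genes, among them FKBP5, TSC22D3, PER1, ZBTB16, SGK1 and CRISPLD2 in many cell types. Cardiomyocytes also express the mineralocorticoid receptor, which binds the same hormones.

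The libraries held from 22443904 to 53224112 reads assigned to genes, a 2.37-fold range. Values are normalized counts, meaning reads divided by 1 factor per library, and 1 read was worth 0.638 to 1.51 normalized counts. A value after ± is the SD over the 3 libraries of a genotype (n = 3), and fold changes from limma are on the log2(normalized count + 1) scale. WT replicate 2 and STK25KO replicate 1 stood apart in the same direction: the correlation across 15536 genes (not independent replicates) of their deviations from their genotype means was 0.45. For genes described singly, values without these libraries are given where they move a value by over 1.5 times or change its sign, its call or the overlap of the genotypes. STK25 itself was at 8119 ± 1168 normalized counts in WT and 3719.9 ± 251 in STK25KO, 45.8% of the WT mean. Its log2 fold change was -1.12 (SE 0.19, limma with Benjamini-Hochberg adjustment, adjusted p = 0.00903), with an adjusted p of 0.0611 without WT replicate 1. The summed level of 10 cardiomyocyte markers ran from 865008 to 931412 normalized counts in WT and from 1001405 to 1045264 in STK25KO, with 2 of the 10 (PLN and NKX2-5) called lower. Of these 10 markers, 6 had an unadjusted limma p under 0.05 and 6 were called with DESeq2. Without both WT replicate 2 and STK25KO replicate 1, limma called 8 of them. Of all 15536 tested genes, 12.8% passed the limma threshold (adjusted p under 0.05) and 33.4% had libraries that did not overlap between genotypes.

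HSD11B1 was read in every STK25KO library and in no WT library. The gene lies on the plus strand of chromosome 1 from 209686178 to 209734950 (GENCODE 29 on GRCh38, as for all gene positions here). No read was assigned to it in any of the 3 WT libraries, whereas STK25KO replicates 1, 2 and 3 had 105, 38 and 56 reads, or 133, 42.4 and 49.8 normalized counts. The STK25KO mean was 75.2 ± 50.6. Replicate 1, which stood apart from the other STK25KO libraries, had the highest value, and the genotypes did not overlap. Against a floor of 3 reads in each WT library the STK25KO mean was at least 25.8-fold higher, and at least 15.8-fold higher without STK25KO replicate 1. The difference on the log2(normalized count + 1) scale was 6.06, and 5.55 without STK25KO replicate 1. That number depends on the added count of 1 and is no measure of the true ratio.

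H6PD, which feeds NADPH to the HSD11B1 enzyme, was expressed in both genotypes, with overlapping levels over the 3 libraries of each. The gene (chromosome 1, 9234775 to 9271337, plus strand) had 521, 254 and 582 normalized counts in WT replicates 1, 2 and 3. The STK25KO libraries had 469, 504 and 244. The ranges overlapped, with means of 453 ± 174 and 406 ± 141. The log2 difference of -0.14 ran from -0.51 to 0.19 with 1 library left out, being above 0 without WT replicate 1 (0.0059), WT replicate 3 (0.09) or STK25KO replicate 3 (0.19). Without WT replicate 2 (-0.51), and without WT replicate 2 and STK25KO replicate 1 (-0.65), all remaining STK25KO libraries lay below the remaining WT libraries.

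HSD11B2, the inactivating enzyme best known from kidney tubules, was close to the limit of detection. The gene (chromosome 16, 67430652 to 67437553, plus strand) had 2, 0 and 0 reads in WT replicates 1, 2 and 3 and 2, 11 and 12 reads in the STK25KO libraries. These correspond to 3.02, 0 and 0 normalized counts in WT and 2.54, 12.3 and 10.7 in STK25KO. WT replicate 1 lay above STK25KO replicate 1, so the genotypes overlapped, and they did not overlap without either of these libraries. All WT reads came from WT replicate 1. The ratio of the mean normalized counts, STK25KO to WT, was 8.43. Pooled reads, 25 in STK25KO and 2 in WT, divided by the summed scaling factors of each genotype, gave a ratio of 15.8. Pooling leaves out the spread between libraries, so both ratios are a description only. It was the only one of the 9 genes under the mean of 10 normalized counts that genes needed to be tested.

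**Figure D1:**
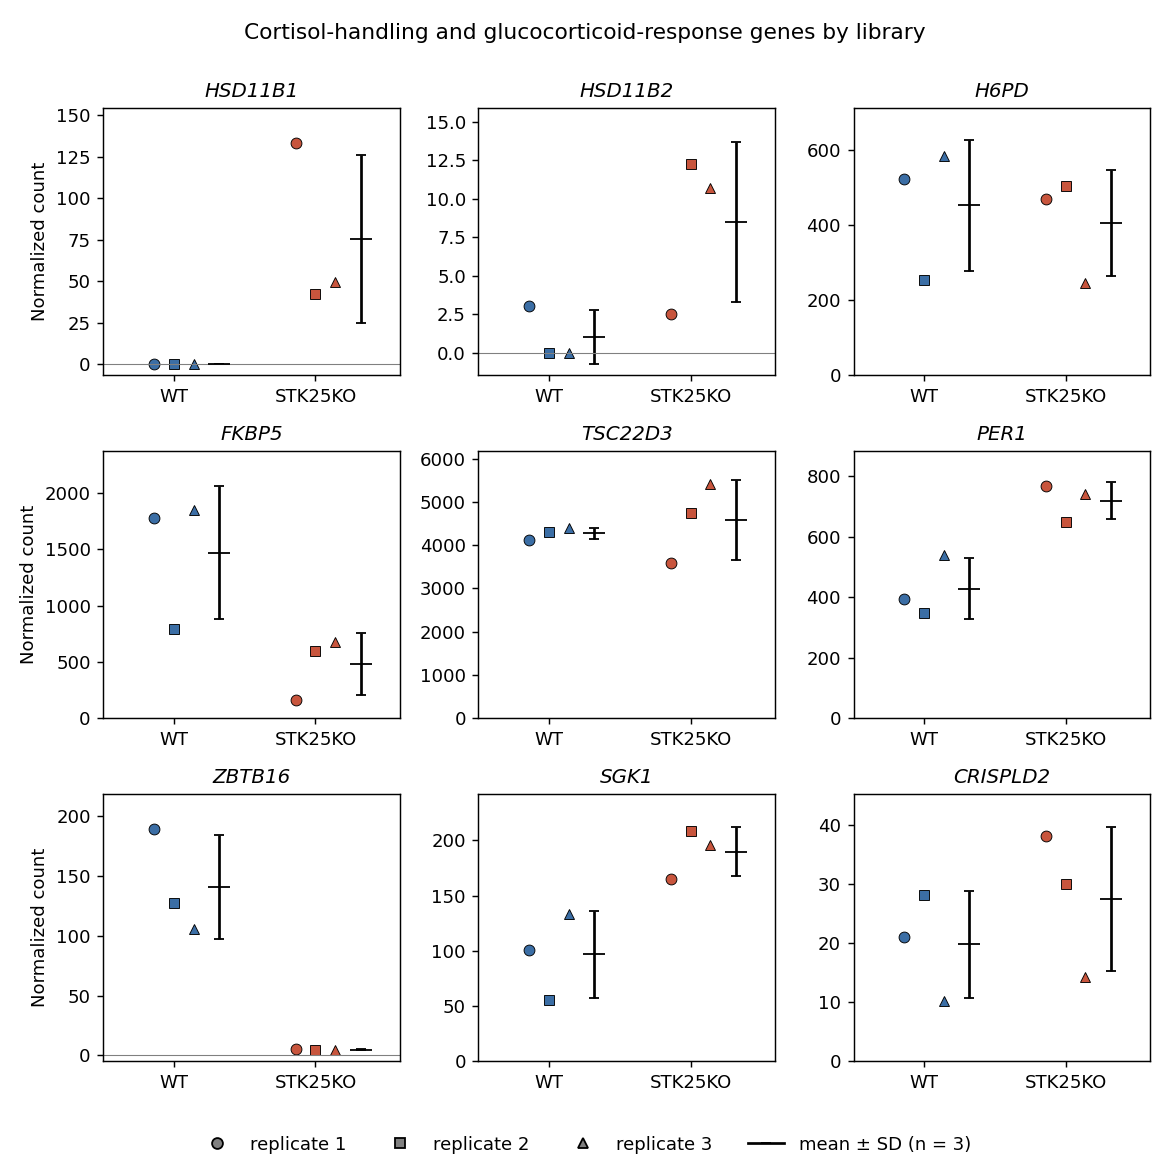
Normalized counts of the 9 genes in each library, with 1 panel per gene, linear axes, a marker shape per replicate, and black bars for the mean ± SD of 3 libraries. HSD11B1 sits at 0 in all 3 WT libraries and at 42.4 to 133 in STK25KO, ZBTB16 sits at 105 to 189 in WT and at 4.44 to 5.08 in STK25KO, and the TSC22D3 and H6PD ranges overlap.

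Promoter sequences are shown for HSD11B1, whose reads were confined to STK25KO libraries, and for 3 response genes whose genotypes did not overlap. RefSeq windows on GRCh38.p14, from 250 bases before to 50 bases after a start site, existed for 7 of the 9 genes, in 13 windows. HSD11B2 and ZBTB16 are named only. FKBP5 has 2 windows and SGK1 has 3, and the windows printed for them were picked because they hold AGAACA. In the following lines each window is written 5′ to 3′ on the gene's strand. Capitals mark AGAACA on either strand, which is only an arm of the palindromic glucocorticoid response element, or CACGTG, the E-box bound by clock factors. The windows are chr1:209685929-209686228 (plus) for HSD11B1, chr6:35728534-35728833 (minus) for FKBP5, chr6:134177812-134178111 (minus) for SGK1 and chr17:8152355-8152654 (minus) for PER1.
HSD11B1: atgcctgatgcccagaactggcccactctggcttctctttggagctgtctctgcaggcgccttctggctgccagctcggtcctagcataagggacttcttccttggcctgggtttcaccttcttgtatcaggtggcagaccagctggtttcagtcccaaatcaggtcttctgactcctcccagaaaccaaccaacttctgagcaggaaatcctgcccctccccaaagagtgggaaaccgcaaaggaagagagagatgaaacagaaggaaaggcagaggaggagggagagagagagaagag
FKBP5: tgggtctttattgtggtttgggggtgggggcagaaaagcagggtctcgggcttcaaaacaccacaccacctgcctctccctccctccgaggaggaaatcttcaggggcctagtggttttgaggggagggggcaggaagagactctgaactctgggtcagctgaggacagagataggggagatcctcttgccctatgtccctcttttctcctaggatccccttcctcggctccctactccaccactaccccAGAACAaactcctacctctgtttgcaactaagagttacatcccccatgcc
SGK1: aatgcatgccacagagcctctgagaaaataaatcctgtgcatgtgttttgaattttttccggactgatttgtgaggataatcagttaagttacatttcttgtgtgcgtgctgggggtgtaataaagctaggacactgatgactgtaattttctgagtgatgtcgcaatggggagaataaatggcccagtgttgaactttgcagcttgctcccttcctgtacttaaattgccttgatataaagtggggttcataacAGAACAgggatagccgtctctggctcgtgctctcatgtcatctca
PER1: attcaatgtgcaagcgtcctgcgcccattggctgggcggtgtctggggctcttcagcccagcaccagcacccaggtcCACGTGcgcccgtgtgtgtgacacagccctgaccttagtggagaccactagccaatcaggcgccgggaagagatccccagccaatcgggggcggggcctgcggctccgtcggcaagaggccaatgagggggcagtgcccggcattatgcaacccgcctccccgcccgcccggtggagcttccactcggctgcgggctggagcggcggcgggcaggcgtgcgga

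The full palindrome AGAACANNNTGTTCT was found in 0 of the 13 windows and in 1 of 35116 windows of all genes. A looser form, GNACANNNTGTNC, was also found in 0 of the 13 windows and in 0.390% of all windows. The sequence AGAACA, which is only part of the full palindrome, occurred in 3 of the 13 windows, in H6PD, FKBP5 and SGK1, and in 14.8% of all windows. CACGTG occurred in 2 windows, that of PER1 and the FKBP5 window not printed, and in 7.26% of all windows. All motifs were searched on both strands, and a match or its absence describes these letters only. The HSD11B1 window had 3 CpG dinucleotides against a median of 14 over all windows, and the PER1 window had 25.

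The 6 response genes did not move together. FKBP5 and ZBTB16 were lower in STK25KO, PER1 and SGK1 were higher, and TSC22D3 and CRISPLD2 overlapped between genotypes. Over all 9 genes, 5 had libraries that did not overlap between genotypes, 3 of them higher and 2 lower in STK25KO, beside 33.4% of all tested genes (16.2% higher and 17.2% lower). The limma threshold was passed by 2 of the 9, HSD11B1 and ZBTB16, beside 12.8% of all tested genes, and nothing is read from these counts because the genes were chosen with this comparison known. In bulk RNA, fewer cells of a type and less RNA per cell cannot be told apart.

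ZBTB16 encodes PLZF, a zinc finger transcription factor, and had the largest drop among the 9 genes. The gene (chromosome 11, 114059593 to 114250676, plus strand) had 189, 127 and 105 normalized counts in WT replicates 1, 2 and 3. In STK25KO the values were 5.08, 4.46 and 4.44, from 4, 4 and 5 reads. Each WT library was thus far above each STK25KO library. The WT mean of 140.4 ± 43.3 was 30.1-fold the STK25KO mean of 4.66 ± 0.366. The log2 difference was -4.60 and stayed between -4.79 and -4.37 when any 1 library was left out. With so few STK25KO reads it also depends on the added count and the tool, from -3.32 with 10 added to -4.91 with DESeq2.

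FKBP5 encodes a co-chaperone of HSP90 that lowers the receptor's affinity for hormone. The gene (chromosome 6, 35573585 to 35728583, minus strand) had 1776, 789.9 and 1847 normalized counts in WT replicates 1, 2 and 3 and 167, 595 and 683 in the STK25KO libraries. The lowest WT library (replicate 2) and the lowest STK25KO library (replicate 1) are the libraries that stood apart, and even so the lowest WT value lay above the highest STK25KO value. The means were 1471 ± 591 and 481 ± 276, so STK25KO had 32.7% of the WT mean. The log2 difference was -1.75. It was -1.11 without STK25KO replicate 1, -2.15 without WT replicate 2 and -1.51 without both.

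TSC22D3 encodes GILZ, a leucine zipper protein with anti-inflammatory actions, and was the most abundant of the 9 genes. The gene (chromosome X, 107713221 to 107777342, minus strand) had 4129.6, 4299.6 and 4389 normalized counts in WT and 3593, 4750.3 and 5421 in STK25KO. The WT libraries were close together and lay inside the range of the STK25KO libraries. The log2 difference of 0.08 changed sign with equal totals (-0.20), with quantile normalization (-0.04) and without STK25KO replicate 3 (-0.05). Without STK25KO replicate 1 it was 0.25, with or without WT replicate 2, and both remaining STK25KO libraries lay above the WT libraries.

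PER1 encodes a repressor of the circadian clock whose transcription glucocorticoids can raise directly. The gene (chromosome 17, 8140472 to 8156506, minus strand) had 396, 348 and 541 normalized counts in WT and 766, 649.8 and 740.3 in STK25KO. Every STK25KO library was above every WT library, and the mean was 1.68-fold higher, with a log2 difference of 0.77. With all libraries scaled to equal totals the ranges met, at 603 in STK25KO replicate 1 and 625 in WT replicate 3. A protein-coding gene on the same strand, AC129492.3, overlaps PER1 and had means of 308 in WT and 667 in STK25KO, so reads could have been split between them and the PER1 value is uncertain.

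SGK1 encodes a kinase that acts on ion channels and on FOXO factors and is induced through both corticosteroid receptors. The gene (chromosome 6, 134169246 to 134318112, minus strand) had 101, 55.6 and 133 normalized counts in WT replicates 1, 2 and 3. The STK25KO libraries had 165, 208 and 196, all above the WT libraries. The means were 96.7 ± 39.1 and 189.7 ± 22.2, a ratio of 1.96 and a log2 difference of 1.05. Without WT replicate 2, the lowest library, the log2 difference was 0.70. With equal totals WT replicate 3 (154.0) lay above STK25KO replicate 1 (130.1).

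CRISPLD2 encodes a secreted protein that glucocorticoids induce in airway smooth muscle. The gene (chromosome 16, 84819984 to 84920768, plus strand) had 21.1, 28.2 and 10.2 normalized counts in WT and 38.1, 30.1 and 14.2 in STK25KO, so the ranges overlapped. The log2 difference of 0.45 ran from 0.06 without WT replicate 3 to 0.85 without STK25KO replicate 3, where the genotypes no longer overlapped. It was 0.75 without WT replicate 2, 0.17 without STK25KO replicate 1 and 0.47 without both.

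**Figure D2:**
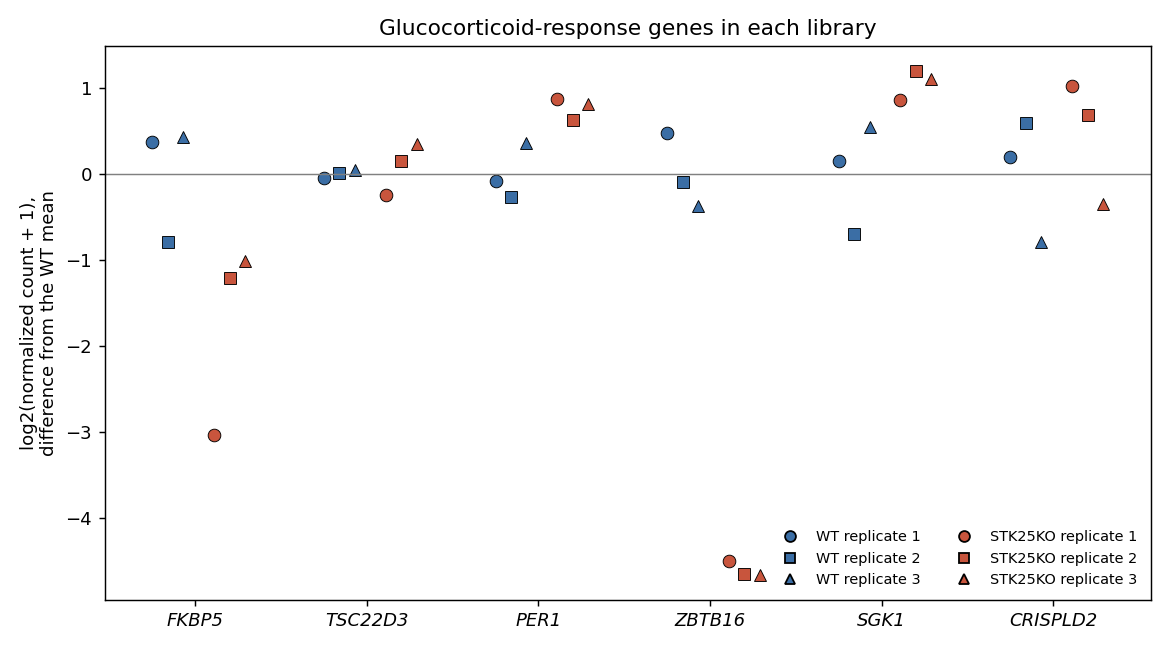
Each point is 1 library's log2(normalized count + 1) for a response gene, less the mean of the 3 WT libraries, with colour for genotype and shape for replicate. FKBP5 and ZBTB16 lie below the WT libraries in STK25KO, PER1 and SGK1 lie above them, and STK25KO replicate 1 is the lowest point of FKBP5.

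Levels can be compared between genes only per length, here as normalized counts per kilobase of merged exons in GENCODE 29. Merged exons cover all annotated transcripts, expressed here or not, so a gene with many annotated exons can read too low. Their length was 1513 bases for HSD11B1, 9992 for SGK1 and 10628 for FKBP5, so the orders below are a description only. In WT the order of level was TSC22D3 (896 ± 27.6), FKBP5 (138 ± 55.6), PER1 (61.2 ± 14.3), H6PD (48.6 ± 18.7), ZBTB16 (22.0 ± 6.80), SGK1 (9.68 ± 3.91), CRISPLD2 (2.49 ± 1.14), HSD11B2 (0.377 ± 0.652) and HSD11B1 at 0 (mean ± SD, n = 3 each). In that order the neighbours FKBP5 and PER1, PER1 and H6PD, H6PD and ZBTB16, and HSD11B2 and HSD11B1 overlapped over the 3 libraries. In STK25KO the order of level began with TSC22D3 (963 ± 194), PER1 (102.7 ± 8.74), HSD11B1 (49.7 ± 33.4), FKBP5 (45.3 ± 26.0) and H6PD (43.5 ± 15.1), of which the last 3 overlapped. SGK1 (19.0 ± 2.22), CRISPLD2 (3.45 ± 1.53), HSD11B2 (3.17 ± 1.95) and ZBTB16 (0.732 ± 0.0574) followed, with CRISPLD2 and HSD11B2 overlapping. In STK25KO replicate 1 the per-kilobase level of HSD11B1 was 88.2 and that of FKBP5 15.7, whereas in replicates 2 and 3 HSD11B1 was at 28.0 and 32.9 and FKBP5 at 56.0 and 64.2. Without replicate 1 the STK25KO means were 60.1 for FKBP5, 40.1 for H6PD and 30.4 for HSD11B1, so the place of HSD11B1 above both rests on that library. ZBTB16 went from between H6PD and SGK1 to last.

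The receptors were compared next. NR3C1, the glucocorticoid receptor gene, had 589, 508 and 572 normalized counts in WT and 286, 836 and 679.9 in STK25KO. The STK25KO libraries lay on both sides of the WT libraries, with only replicate 1 below them. The other STK25KO libraries lay above every WT library, so the genotypes did not overlap without STK25KO replicate 1. The log2 fold change was -0.02 (SE 0.40, limma adjusted p = 0.979), and it was 0.44 without STK25KO replicate 1. NR3C2, the mineralocorticoid receptor gene, had 21.1, 9.90 and 6.38 normalized counts in WT and 0, 17.8 and 13.3 in STK25KO (limma log2 fold change -0.91, SE 1.22, adjusted p = 0.696). It took the opposite sign without STK25KO replicate 1 (0.44), also when WT replicate 2 was left out with it (0.36), and was -1.68 without STK25KO replicate 2.

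Among 17 genes for the receptors, their chaperones and their coregulators, 2 were called higher and 0 lower, where 5.97% and 6.79% of all tested genes were called in those directions. The same shares stand beside the counts of the pathway and marker lists that follow, in which only genes past the filter could be called. BAG1, an HSP70 co-chaperone that binds the glucocorticoid receptor, rose from 4900.0 ± 881 to 11185 ± 2249.8 normalized counts (limma log2 fold change 1.19, SE 0.22, adjusted p = 0.014). NCOA1, the coactivator SRC-1, rose from 908 ± 256 to 1929.7 ± 391 (limma log2 fold change 1.11, SE 0.29, adjusted p = 0.0423). BAG1 lost its call without WT replicate 1, WT replicate 3 or STK25KO replicate 3 (adjusted p = 0.0768, 0.0685 and 0.0577). NCOA1 lost its call in 5 of the 6 fits that left out 1 library, all but the fit without STK25KO replicate 1 (limma adjusted p = 0.027). The highest adjusted p was 0.152, without STK25KO replicate 3, and with equal totals it was 0.19.

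Genes for making corticosteroids from cholesterol moved in both directions. Of 12 genes, 9 passed the filter on low values, and of these 2 were called higher and 2 lower, beside 5.97% and 6.79% of all tested genes. CYP11A1, which cleaves the cholesterol side chain, and FDXR, which passes electrons to ferredoxin and so indirectly to that enzyme, were the lower genes. HSD3B2 and CYP17A1, which act on the next steps, were the higher genes. FDXR had 639, 747 and 697 normalized counts in WT and 95.3, 128 and 157 in STK25KO, 18.3% of the WT mean (limma log2 fold change -2.47, SE 0.28, adjusted p = 0.00164). CYP11A1 had 335, 385 and 303 normalized counts in WT and 139, 176 and 196 in STK25KO (fell by 1.005 on the log2 scale, SE 0.27, limma adjusted p = 0.0498). The CYP11A1 call was lost in each of the 6 fits that left out 1 library (adjusted p from 0.0736 to 0.168) and with edgeR (adjusted p = 0.0536). Without both WT replicate 2 and STK25KO replicate 1 the limma adjusted p of CYP11A1 was 0.0571.

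CYP17A1, at the branch toward cortisol precursors and androgens, had 10.6, 6.09 and 1.91 normalized counts in WT and 211, 216 and 149 in STK25KO. The STK25KO mean was 31.0-fold the WT mean (limma log2 fold change 4.94, SE 0.60, adjusted p = 0.00237), and 48.0-fold without WT replicate 1. HSD3B2 had 0, 1.52 and 7.65 normalized counts in WT and 128, 97.0 and 37.3 in STK25KO (limma log2 fold change 4.81, SE 0.93, adjusted p = 0.0149), with an adjusted p of 0.0562 without STK25KO replicate 2. Its log2 fold change was 4.07 without WT replicate 1 and 5.63 without WT replicate 3. Reads of its near-identical neighbour HSD3B1, at 2.53 ± 2.31 in WT and 34.2 ± 31.0 in STK25KO, could have been split between both genes, so the HSD3B2 value is uncertain. The HSD3B1 genotypes overlapped, and they did not overlap without STK25KO replicate 1. CYP11B1 and CYP11B2, whose enzymes complete cortisol and aldosterone synthesis, had no read in any of the 6 libraries. CYP21A2, which acts just before them, was at 2.16 ± 0.796 in WT and 8.63 ± 6.58 in STK25KO, under the filter.

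**Figure D3:**
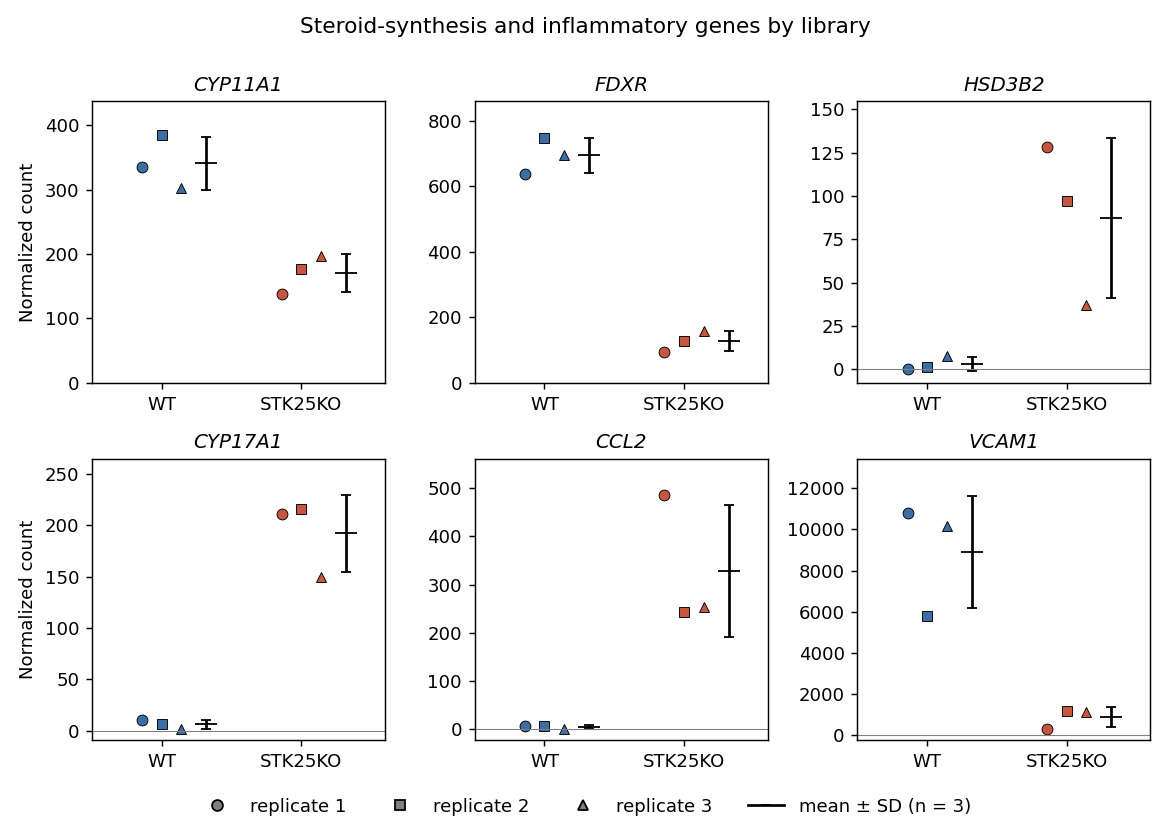
Normalized counts of 4 steroid-synthesis genes and 2 inflammatory genes in each library, on linear axes, with a marker shape per replicate and black bars for the mean ± SD of 3 libraries. CYP11A1, FDXR and VCAM1 are lower in all STK25KO libraries, and HSD3B2, CYP17A1 and CCL2 are near 0 in WT and higher in all STK25KO libraries.

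None of 11 genes for corticosteroid breakdown, efflux and carriage was called with limma, and only 7 of them passed the filter. There were 2 genes at an unadjusted p under 0.05, 0 called with edgeR and 2 with DESeq2. limma called 2 with equal totals, 1 without STK25KO replicate 1 and 3 without both WT replicate 2 and STK25KO replicate 1. The 2 most abundant were AKR1C1 and AKR1C2, reductases of steroid hormones. AKR1C1 was at 1548 ± 188 normalized counts in WT and 1089.7 ± 311 in STK25KO (limma log2 fold change -0.54, SE 0.25, adjusted p = 0.219). AKR1C2 was at 374 ± 46.6 and 768 ± 297 (limma log2 fold change 0.97, SE 0.31, adjusted p = 0.0842). The limma adjusted p of AKR1C1 was 0.0446 with equal totals and 0.0239 without both libraries, and that of AKR1C2 was 0.0412 without both. These paralogs are nearly identical, so their reads could have been split.

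Of 10 genes that handle glucose 6-phosphate in the endoplasmic reticulum or run the pentose phosphate pathway, 9 passed the filter, 1 was called higher and 0 lower. TKT, transketolase, rose from 1832 ± 156 to 3263 ± 383 normalized counts (limma log2 fold change 0.83, SE 0.19, adjusted p = 0.0255). Its call was lost in 5 of the 6 fits that left out 1 library, all but the fit without STK25KO replicate 1 (limma adjusted p = 0.0184). The highest adjusted p was 0.113, without STK25KO replicate 3, and with equal totals it was 0.196. SLC37A4, the transporter that brings the H6PD substrate into the endoplasmic reticulum, was at 207 ± 65.6 in WT and 119.9 ± 32.7 in STK25KO (limma log2 fold change -0.77, SE 0.36, adjusted p = 0.219). Its genotypes overlapped, and without WT replicate 2 all STK25KO libraries lay below the remaining WT libraries.

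A further 40 genes that glucocorticoids are known to induce gave 2 calls higher and 3 lower. Their median log2 fold change over the 34 that passed the filter was 0.03, beside 0.0052 for all tested genes, and it was -0.25 with equal totals, a scaling that moved the median of all genes to -0.27. The lower genes were METTL7A, a methyltransferase, TXNIP, an inhibitor of thioredoxin and glucose uptake, and the metallothionein gene MT1E. METTL7A had 160.1, 178 and 221 normalized counts in WT and 40.7, 39.0 and 39.1 in STK25KO (limma log2 fold change -2.19, SE 0.33, adjusted p = 0.00556). TXNIP fell from 4403 ± 735 to 1566 ± 628 (limma log2 fold change -1.55, adjusted p = 0.016), over the threshold without WT replicate 1 (0.0734) and without STK25KO replicate 3 (0.0666). MT1E fell from 87.3 ± 57.7 to 14.1 ± 3.83 (limma log2 fold change -2.39, adjusted p = 0.035). It was over the threshold in all 6 fits that left out 1 library (adjusted p from 0.0562 to 0.106). Without both WT replicate 2 and STK25KO replicate 1 its log2 fold change was -1.69 (limma adjusted p = 0.0564). MT1E belongs to a family of near-identical genes.

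The higher genes of that list were ZFP36, whose product destabilizes inflammatory mRNAs, and the transcriptional repressor BCL6. ZFP36 rose from 290.0 ± 27.6 to 644 ± 126 normalized counts (limma log2 fold change 1.13, adjusted p = 0.0221). BCL6 rose from 195 ± 47.1 to 494 ± 105 (limma log2 fold change 1.34, adjusted p = 0.0259). Each lost its call in 4 of the 6 fits with 1 library left out. For ZFP36 these were the fits without WT replicates 1, 2 or 3 or STK25KO replicate 3 (adjusted p = 0.0764, 0.0521, 0.0879 and 0.0788), and for BCL6 those without WT replicates 1 or 3 or STK25KO replicates 2 or 3 (adjusted p = 0.0887, 0.0944, 0.0764 and 0.106). With equal totals the adjusted p was 0.0568 for ZFP36 and 0.0763 for BCL6.

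Inflammatory genes that glucocorticoids can repress were called in both directions, with a negative median. Of 14 genes, 7 passed the filter, of which 1 was called higher and 2 lower, beside 5.97% and 6.79% of all tested genes. The median log2 fold change of the 7 was -1.46, beside 0.0052 for all tested genes. It was -1.15 with 10 as the added count and -1.74 with equal totals. IL6, CXCL8 and PTGS2 had at most 3 reads in every library. CCL2, a monocyte chemokine, was at 4.72 ± 3.01 normalized counts in WT, with no library above 6.86, and had 486, 244 and 253 in STK25KO, a 69.4-fold higher mean (limma log2 fold change 5.96, SE 0.62, adjusted p = 0.00121). VCAM1, an adhesion molecule that early cardiomyocytes carry on their surface, had 10785, 5775 and 10164 normalized counts in WT and 329, 1164 and 1155 in STK25KO, 9.91% of the WT mean (limma log2 fold change -3.49, SE 0.51, adjusted p = 0.0047). Without STK25KO replicate 1 the VCAM1 log2 fold change was -2.89. IRF1, an interferon-responsive transcription factor, fell from 139 ± 40.8 to 49.6 ± 12.2 (limma log2 fold change -1.46, adjusted p = 0.0479). The IRF1 call was lost in all 6 fits that left out 1 library (adjusted p from 0.0624 to 0.146) and with edgeR (adjusted p = 0.0572), whereas CCL2 and VCAM1 were called in all 6. Without both WT replicate 2 and STK25KO replicate 1 the limma adjusted p of IRF1 was 0.0608.

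The SGK branch was read from 11 genes, of which only 5 passed the filter. Among them 0 were called higher and 2 lower, beside 5.97% and 6.79% of all tested genes. Both lower genes encode substrates of SGK kinases. NDRG1 had 71.0, 80.0 and 36.4 normalized counts in WT and 5.08, 2.23 and 1.78 in STK25KO (limma log2 fold change -3.99, SE 0.65, adjusted p = 0.00777), with an adjusted p of 0.0533 without WT replicate 1. FOXO3 fell from 1339 ± 144 to 696 ± 99.7 (limma log2 fold change -0.95, adjusted p = 0.0239), and lost its call without WT replicate 1, WT replicate 3 or STK25KO replicate 3 (adjusted p = 0.0996, 0.106 and 0.0996). SCNN1B, a sodium channel subunit known as a corticosteroid target in epithelia, had no read in any library.

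None of 14 clock genes other than PER1 was called with limma, edgeR or DESeq2, and 1 had an unadjusted p under 0.05. The median log2 fold change of the 12 that passed the filter was 0.69, and 0.41 with equal totals. The most abundant were the repressors CRY1 and CRY2. CRY2 had 2332, 974.9 and 2506 normalized counts in WT and 1588, 4651 and 4476 in STK25KO (limma log2 fold change 0.85, SE 0.51, adjusted p = 0.335). The lowest CRY2 library of each genotype was again WT replicate 2 and STK25KO replicate 1. Without both of those libraries 3 clock genes were called, among them CRY2 (limma log2 fold change 0.92, adjusted p = 0.000605). CRY1 was at 2028 ± 922 in WT and 2574 ± 1276 in STK25KO (limma log2 fold change 0.31, adjusted p = 0.765). Without STK25KO replicate 1 the remaining STK25KO libraries of CRY1 and of CRY2 lay above all WT libraries.

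The closest relatives of the 9 genes were read to see whether the family members differed as well. Of 11 relatives, 10 passed the filter, 0 were called higher and 3 lower, beside 5.97% and 6.79% of all tested genes. TSC22D1 fell from 16614 ± 866 to 8102 ± 365 normalized counts (limma log2 fold change -1.04, SE 0.17, adjusted p = 0.00808) and TSC22D2 from 2452 ± 473 to 1122 ± 339 (limma log2 fold change -1.15, SE 0.28, adjusted p = 0.0338), while TSC22D3 itself overlapped between genotypes. TSC22D4 was at 700.1 ± 284 and 482 ± 205 (limma log2 fold change -0.55, adjusted p = 0.414), and its genotypes overlapped. Without STK25KO replicate 1 the remaining STK25KO libraries of TSC22D4 lay below all WT libraries. CRISPLD1 fell from 1034 ± 359 to 360.0 ± 139 (limma log2 fold change -1.54, SE 0.41, adjusted p = 0.0482). TSC22D2 lost its call without WT replicate 1, WT replicate 3 or STK25KO replicate 3 (adjusted p = 0.134, 0.126 and 0.105). CRISPLD1 lost its call in all 6 fits that left out 1 library except the fit without WT replicate 2 (adjusted p up to 0.18), and with equal totals (adjusted p = 0.056).

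The other relatives described here did not pass the threshold. HSD11B1L, a relative of HSD11B1, was at 836 ± 213 in WT and 504 ± 139 in STK25KO (limma log2 fold change -0.74, SE 0.30, adjusted p = 0.16), with an adjusted p of 0.0441 with equal totals. FKBP4, a co-chaperone that acts opposite to FKBP5 on the receptor, was at 5722 ± 879 and 7146 ± 1604 (limma log2 fold change 0.31, SE 0.23, adjusted p = 0.455). Its genotypes overlapped, and without STK25KO replicate 1 the remaining STK25KO libraries lay above all WT libraries. SGK3 (-0.11), PER2 (0.58) and PER3 (1.40) had log2 fold changes with limma adjusted p-values of 0.866, 0.388 and 0.185. Without WT replicate 2 the PER3 value was 0.73, and the PER2 genotypes no longer overlapped. SGK2 had at most 3 reads in every library.

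**Figure D4:**
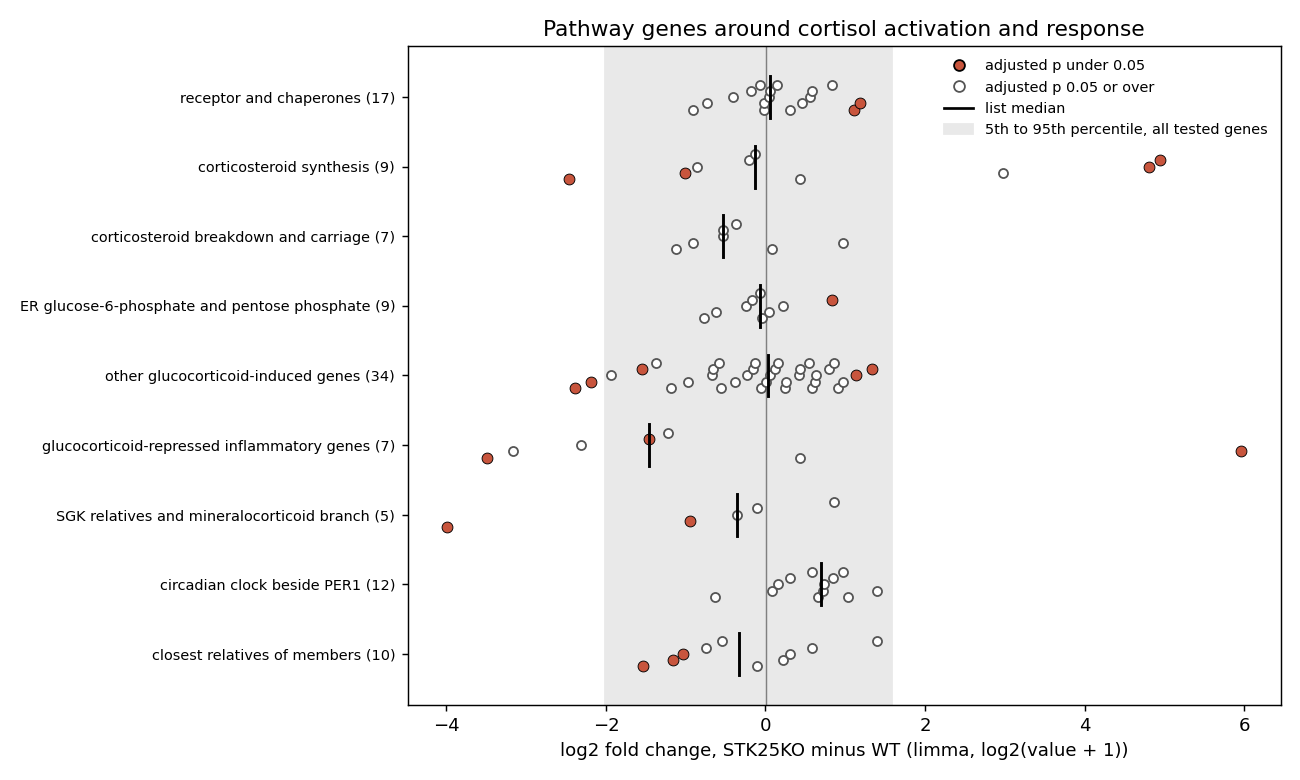
Each circle is the log2 fold change (STK25KO minus WT) of 1 gene that passed the filter, in rows for 9 pathway lists with the number of genes in brackets; filled circles passed the limma threshold, black bars are list medians and the grey band spans the 5th to 95th percentile of all tested genes. Filled circles lie on both sides of 0, at -3.99 for NDRG1 and 5.96 for CCL2 at the ends.

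Over the 9 lists together, 20 of 133 genes were called, 8 higher and 12 lower in STK25KO, and 105 passed the filter. Of all tested genes, 12.8% were called, 5.97% higher and 6.79% lower. Of the 20, FDXR, CYP17A1, METTL7A, CCL2, VCAM1 and TSC22D1 (6 genes) were called in all 6 fits that left out 1 library. Of the 20, 7 were still called without WT replicate 1, 9 without WT replicate 3, 12 without STK25KO replicate 2 and 8 without STK25KO replicate 3. Without both WT replicate 2 and STK25KO replicate 1, 44 genes of the lists were called, among them 17 of the 20. Over all genes that setting called 4706, beside 1982 with all libraries.

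The 5 tested genes whose values followed HSD11B1 most closely over the 6 libraries were MOG, UGT2B24P, NMRK2, ZAR1 and FGFR2, with Pearson correlations of log2(normalized count + 1) from 0.998 to 0.999. These points share libraries and fall in 2 genotype groups, and 1088 of 15528 genes reached a correlation of 0.9, so the values are a description. UGT2B24P had no read in WT and from 126 to 494 normalized counts in STK25KO, and ZAR1 had none in WT and 215, 44.6 and 47.1 in STK25KO, so both were highest in STK25KO replicate 1, as HSD11B1 was. The limma log2 fold change of ZAR1 was 6.28, and 5.55 without STK25KO replicate 1. As UGT2B24P is a pseudogene, its reads may belong to related genes. MOG (368 ± 7.16 and 865 ± 92.4), NMRK2 (993 ± 30.5 and 6254 ± 1337) and FGFR2 (1599.9 ± 85.5 and 6758 ± 1042) were expressed in both genotypes (normalized counts, mean ± SD).

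HSD11B1 is known from liver, fat and stromal cells, so markers of these cell types are given beside it. Of 10 fibroblast and stromal markers, 4 were called higher (COL3A1, DCN, THY1 and TCF21) and 1 lower (COL1A2) in STK25KO, and their summed level ran from 13009 to 26554 normalized counts in WT and from 8515 to 16927 in STK25KO. The median log2 fold change of these 10 markers was 1.65, so the median and the sum differ in direction. All 10 had an unadjusted limma p under 0.05, and 10 were called without both WT replicate 2 and STK25KO replicate 1. Of 9 hepatocyte and endoderm markers, 0 were called higher and 2 lower (AFP and FGB), with sums of 1841 to 3212 in WT and 1323 to 1394 in STK25KO, and FOXA2 had no read in any library. The 6 adipocyte markers were near 0, with sums of 8.38 to 17.9 in WT and 8.92 to 16.5 in STK25KO. Smooth muscle markers, with 3 of 6 called higher (MYH11, CNN1 and TAGLN) and 0 lower, summed to 38399.6 to 44593 in WT and 112718 to 144953 in STK25KO. Of 8 epithelial markers, which matter for HSD11B2, 2 were called higher (KRT8 and KRT18) and 1 lower (KRT19), with sums of 125224 to 132899 and 282059 to 313587. The median log2 fold change of the 7 epithelial markers that passed the filter was only 0.22, and -0.04 with equal totals. The epithelial sums thus do not stand for the whole list. Of 8 endothelial markers 1 was called higher (ESAM) and 0 lower, with sums of 179 to 496 in WT and 1186 to 1307 in STK25KO, and CDH5 and TIE1 had at most 3 reads in every library. Of 7 neural markers 3 were called higher (SOX2, PAX6 and TUBB3) and 0 lower, with sums of 4558 to 7867 and 7077 to 16891. The part of stromal, smooth muscle, epithelial, endothelial or neural cells in the differences of the 9 genes was not tested.

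**Figure D5:**
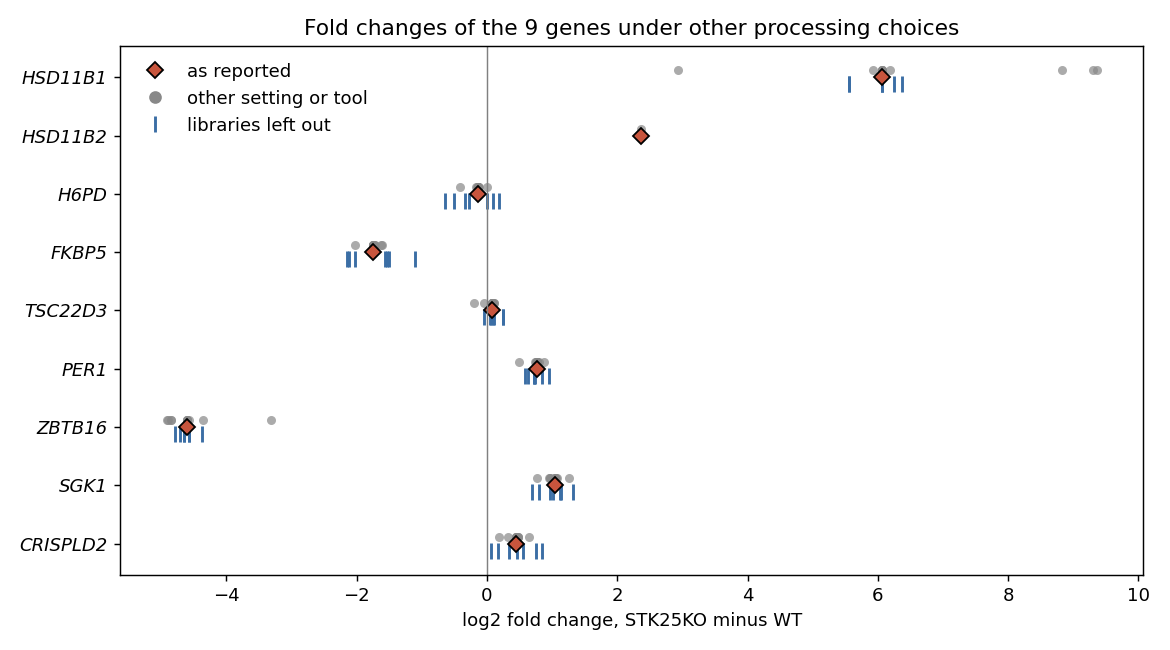
Log2 fold change (STK25KO minus WT) of the 9 genes as reported (diamonds), under another setting or tool (grey circles) and with libraries left out (blue ticks). FKBP5 and ZBTB16 stay below 0 and HSD11B1, PER1 and SGK1 stay above 0 in each alternative run, while H6PD and TSC22D3 take both signs; the HSD11B1 value runs from 2.94 to 9.36 with the added count and the tool.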

How the data were processed

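The deposited table, named normalized counts by its authors, gives 1 signal value per gene symbol and library. Per the submitters' processing notes, bcl2fastq 2.19, kallisto 0.44.0, DESeq2 1.28.1 and GRCh38 were used, with no role or order stated; annotation and strand setting are not given in the sources used here. Per the labels' protocols, RNA was column-purified with DNase digestion, and the Clontech Ultra Low v4 kit gave the cDNA for NexteraXT. In every column 100% of values were whole multiples (within 0.001 reads) of 1 factor per library, so whole reads were recovered. No molecular identifiers are mentioned, so floors of 3 reads cover counting error only. Replicate pairs differed by 20.0 to 391 chi-square units per degree of freedom, so each library counted as 1 replicate.

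The 9 genes, the pathway and marker lists and the tests were chosen with earlier results of these data known. limma 3.58.1 (R 4.3.3) was fitted to log2(value + 1) with a trend for the 15536 genes with a mean of at least 10, over all 6 libraries without covariates, with Benjamini-Hochberg adjustment over all of them and a threshold of 0.05. Named genes were the 9 genes, both receptors, called list genes, the 2 most abundant genes of lists without a call, relatives past the filter (1 is not reported here), the 5 genes most like HSD11B1, and STK25. SLC37A4, CYP21A2, CYP11B1, CYP11B2, HSD3B1, SCNN1B, SGK2, AC129492.3, IL6, CXCL8 and PTGS2 were named after their values were seen. On simulated reads for 15536 genes with 200 changed, limma recovered 154 with 11 false calls. edgeR 4.0.16 recovered 155 with 8, and DESeq2 1.42.0 recovered 159 with 12. Whether these rates hold for the 6 libraries was not tested. Exon lengths came from GENCODE 29, matched by symbol, and promoters from RefSeq on GRCh38.p14. Figures used Python 3.11.15 and matplotlib 3.10.9.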

Additional observations from a re-analysis of the deposited data

How the results depend on the processing

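The settings tried were 0.1 or 10 as pseudocount, a minimum mean of 50 or none, equal totals, equal upper quartiles or quantile normalization as scaling, a replicate block, limma with no trend, edgeR, DESeq2 and each library left out in turn; leaving out WT replicate 2 with STK25KO replicate 1 was chosen after seeing the data. The 1982 genes called over all genes became 3210 with DESeq2 and 4706 without those 2 libraries, and ran from 792 to 2192 with 1 library left out. The 20 called genes of the 9 lists became 32 with DESeq2 and 44 without those 2 libraries, and ran from 7 to 23 with 1 library left out. The 5 of 9 genes whose genotypes did not overlap became 3 with equal totals and 8 without those 2 libraries, and ran from 5 to 7 with 1 library left out. With fewer libraries genotypes overlap less by construction. The share over all genes was not computed in these settings, so nothing is read from these counts. The 2 of 9 past the threshold became 4 with DESeq2, 3 without those 2 libraries and 1 with a minimum mean of 50, which HSD11B1 does not reach. Equal totals lowered the share of higher genes among all calls from 46.8% to 27.4%.

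Same-numbered libraries did not pair: the correlations of their deviations were -0.23, -0.40 and 0.17 for replicates 1, 2 and 3, and the samples share only a number. With the replicate block 798 genes were called over all genes and 7 in the 9 lists, and STK25 (log2 fold change -1.12) had a limma adjusted p of 0.0684. STK25 was at -1.279 without those 2 libraries, ran from -1.24 to -1.05 with 1 library left out, and was over the threshold in only 1 of those fits, the fit without WT replicate 1. Over the named genes other than the 9 and STK25, 578 alternative values kept their side of the threshold, 95 lost a call, 7 gained one and 0 reversed a called direction. HSD11B2 was fitted only with no filter.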
